A study of Mus musculus with 556 samples.

Results

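Gata6, Gata4, Sox17, Sox7, Pdgfra and Foxa2 encode regulators of the primitive endoderm, and their contact with the nuclear lamina was followed here in single cells of the early mouse embryo. The 6 genes were chosen by name, not by any measured value, although earlier results of these data were known. Each was placed in the 100 kb bin of build GRCm38 (mm10) that holds the midpoint of the gene, and 5 bins on each side served as its surroundings. They are 6 of the 20665 protein-coding genes that could be placed in a bin, and they fall in 6 different bins of the 24022 bins with a value.

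The primitive endoderm is the layer of the late blastocyst that lines the inner cell mass and later gives rise to the visceral and parietal endoderm of the yolk sacs. FGF signalling from the epiblast precursors favours this fate, and Gata6, a zinc-finger transcription factor, is among the first of its regulators to appear. Sox17 and Gata4 follow, Pdgfra, the receptor for platelet-derived growth factor, marks the precursors, and Sox7 and Foxa2 come up later in the lineage. None of the stages mapped cell by cell in this study contains a primitive endoderm: oocytes, zygotes, 2-cell and 8-cell embryos precede it, and embryonic stem (ES) cells resemble the epiblast. Contact with the lamina, the protein meshwork under the inner nuclear membrane, is commonly found at silent chromatin, in stretches called lamina-associated domains (LADs).

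In DamID a bacterial adenine methyltransferase, Dam, methylates the A of the sequence GATC wherever it meets DNA, and the methylated fragments are sequenced. Fused to lamin B1, a component of the lamina, Dam marks lamina contact, whereas unfused Dam, the control construct, marks DNA that is accessible. Each value is the authors' ratio of observed to expected reads in a bin of 1 cell, called OE here, so that an OE of 1 is the expected signal. In oocytes and embryos, constructs were injected as mRNA with an auxin-inducible degron, together with mRNA for TIR1, which mediates the degradation, and for membrane-EGFP. There auxin was withheld for 6 to 8 h to allow methylation.

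Single oocytes at the germinal vesicle stage carried Dam-lamin B1 at 5 ng/µl (56 cells) or Dam at 20 ng/µl (43 cells). Whole zygotes carried the same amounts (19 cells with Dam-lamin B1, 46 with Dam). Cells of 2-cell embryos had 10 ng/µl of Dam-lamin B1 (47 cells) or 40 ng/µl of Dam (45 cells), and cells of 8-cell embryos had 20 ng/µl of Dam-lamin B1 (41 cells) or 40 ng/µl of Dam (4 cells). ES cells were mapped with Dam-lamin B1 alone (10 cells), and neither an mRNA amount nor a time without auxin is given for them. A further 2 oocyte sets are labelled 20 ng (17 cells) and 50 ng (23 cells) of Dam-lamin B1. Amount, construct and stage therefore cannot be told apart between stages. Within each stage the 2 constructs also differed in amount, so amount cannot be told apart from construct there.

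Treated zygotes, all with Dam-lamin B1, received wild-type (14) or mutant (9) Kdm5b mRNA at 2 µg/µl, wild-type (12) or mutant (10) Kdm4d mRNA, aphidicolin (9) or its solvent DMSO (11). Kdm5b removes methyl groups from lysine 4 of histone H3, Kdm4d removes them from lysine 9, and aphidicolin blocks DNA replication. The protocol text describes aphidicolin for 2-cell embryos, whereas the single cells used here are titled as zygotes. Single pronuclei, the separate paternal and maternal nuclei of a zygote, were mapped with Dam-lamin B1 and no Kdm5b (15 paternal, 10 maternal), with wild-type Kdm5b (19 paternal, 19 maternal) or with mutant Kdm5b (6 paternal, 13 maternal). One pronucleus was taken per zygote and was told apart by its size and its place relative to the second polar body. Whole zygotes and 2-cell and 8-cell embryos are labelled C57BL/6 female x CAST/EiJ male, oocytes and pronuclei C57BL/6, and ES cells 129/Sv female x CAST/EiJ male, while the growth protocol names F1 (CBAxC57BL/6J) females 5 to 8 weeks old. The blastocyst entered as 2 deposited lists of LADs, for the inner cell mass (ICM) and the trophectoderm (TE). TE cells had been marked with fluorescent beads and the ICM was the unmarked rest, so primitive endoderm and epiblast were not separated.

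The labels did not decide the group of 14 further cells, which entered no comparison. The construct labels were checked on a LAD contrast, the log2 ratio of the mean OE over bins that both LAD lists cover to that over bins outside both. This ratio was above 0 in 19 of 19 zygotes with Dam-lamin B1 and in 0 of 46 with Dam, in 46 of 47 against 1 of 45 cells of 2-cell embryos, in 40 of 41 against 0 of 4 cells of 8-cell embryos, and in 10 of 10 ES cells. In oocytes it was above 0 in 12 of 56 cells with Dam-lamin B1 and 0 of 43 with Dam, so in most oocytes the bins of the blastocyst LADs had less signal than the bins outside. With wild-type Kdm5b it was also low, at -0.09 ± 0.21 (SD, n = 19) in paternal and 0.28 ± 0.30 (SD, n = 19) in maternal pronuclei, against 0.76 ± 0.29 (SD, n = 15) and 0.68 ± 0.21 (SD, n = 10) without Kdm5b. Depth, recovered from the steps of the low values, ran from 23542 to 1090927 reads per cell with a median of 71728.5, and the true depth may be a whole multiple of this. At that median, an OE of 1 stands for 3.03 to 3.54 reads in the bins of the 6 genes, so single-cell values near 0 cannot be told from low ones. From oocyte to 8-cell stage, median depth was 47907.5, 41761, 43211 and 36276 reads with Dam-lamin B1. With Dam it was 181882, 94203, 56748 and 46314. With Dam-lamin B1 an OE of 1 thus stood for fewer reads, and bins without a read are likelier through depth alone.

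By the ICM and TE lists the 6 genes split into genes inside a LAD of both tissues, inside an ICM LAD alone, and outside. Sox17 (chr1:4490928-4497426) and Foxa2 (chr2:148042877-148046969) lay in LADs of both tissues. The LADs around Sox17 spanned 10.0 Mb in the ICM list and 3.1 Mb in the TE list, and those around Foxa2 5.9 Mb and 6.9 Mb. Pdgfra (chr5:75151322-75198206) lay in a LAD of 2.3 Mb of the ICM list and in none of the TE list, and all 11 bins of its window were in the ICM LAD. Gata6 (chr18:11052510-11085636), Gata4 (chr14:63198914-63271712) and Sox7 (chr14:63943706-63950732) lay in no LAD of either list. The midpoint of Gata6 was 30.9 kb from the nearest TE LAD, which took up the 5 bins to the right of the gene, whereas Gata4 was 935 kb from the nearest ICM LAD. In all, 2 of 6 genes were in both lists, 1 in the ICM list alone, 0 in the TE list alone and 3 in neither, against 50.3%, 8.23%, 9.47% and 32% of all bins with a value. The lists are 1 per tissue, without replicates, and no difference between the tissues was tested.

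Gata4 and Sox7 are 7 bins apart on chromosome 14, and their windows share 4 bins, so their surroundings are not independent. Gata4 reaches into a 2nd bin to its left, while the other 5 genes lie within 1 bin. Sox7 shares its bin with 4930578I06Rik, and each of the other 5 bins holds no further midpoint of a protein-coding gene. The windows of Gata4 and Sox7 held 16 and 12 protein-coding genes, and those of Foxa2, Gata6, Pdgfra and Sox17 held 4, 5, 5 and 6.

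Dam can mark DNA only where GATC occurs, so the promoters of the 2 members with an entry in the RefSeq promoter table (GRCm38.p6) are shown, from 250 bases before to 50 bases after a start site, 5′ to 3′, with GATC in capitals. Pdgfra is the gene that differed between the ICM and TE lists, and Foxa2 is, of the 2 genes that passed a test below, the one in the table. The Pdgfra promoter of the table (chr5:75152001-75152300, plus strand) belongs to a start site inside the listed limits of the gene, which begin at 75151322, and holds no GATC, and the Foxa2 promoter (chr2:148046920-148047219, minus strand) holds 1.
Pdgfra: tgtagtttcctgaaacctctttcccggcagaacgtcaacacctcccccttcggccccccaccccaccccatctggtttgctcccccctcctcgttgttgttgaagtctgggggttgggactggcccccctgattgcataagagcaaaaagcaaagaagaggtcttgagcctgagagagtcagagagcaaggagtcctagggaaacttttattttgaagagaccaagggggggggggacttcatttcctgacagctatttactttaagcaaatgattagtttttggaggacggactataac
Foxa2: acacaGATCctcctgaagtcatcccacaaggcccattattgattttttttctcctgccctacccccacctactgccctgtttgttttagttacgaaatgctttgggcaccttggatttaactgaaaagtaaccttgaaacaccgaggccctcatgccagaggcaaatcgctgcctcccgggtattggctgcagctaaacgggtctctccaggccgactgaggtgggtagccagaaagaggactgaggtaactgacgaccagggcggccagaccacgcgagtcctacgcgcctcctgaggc
GATC reads the same on both strands, and 15758 of 32851 promoters of this length (48.0%) hold at least 1. Of 2 further Foxa2 promoters in the table, at chr2:148045899-148046198 and chr2:148045415-148045714, the first holds 0 and the other 1. The GC content was 51% in the Pdgfra promoter and 54.3% in the Foxa2 promoter printed, against a median of 52.7% over all promoters. The OE values that follow are sums over 100 kb and do not resolve the promoters.

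Across the stages the 6 genes followed different courses. Sox17 had more Dam-lamin B1 than Dam signal from the zygote to the 8-cell stage, most of all at the 2-cell stage, and Foxa2 went from a low signal in oocytes and zygotes to one above the Dam signal at the 2-cell and 8-cell stages. Gata4, Sox7 and Pdgfra had less Dam-lamin B1 than Dam signal at all 4 stages with both constructs. Gata6 was high with both constructs in oocytes and at the 2-cell stage. Each stage was 1 set of cells whose embryos the labels do not name, so the values across stages are given as a description with no test.

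**Figure D1:**
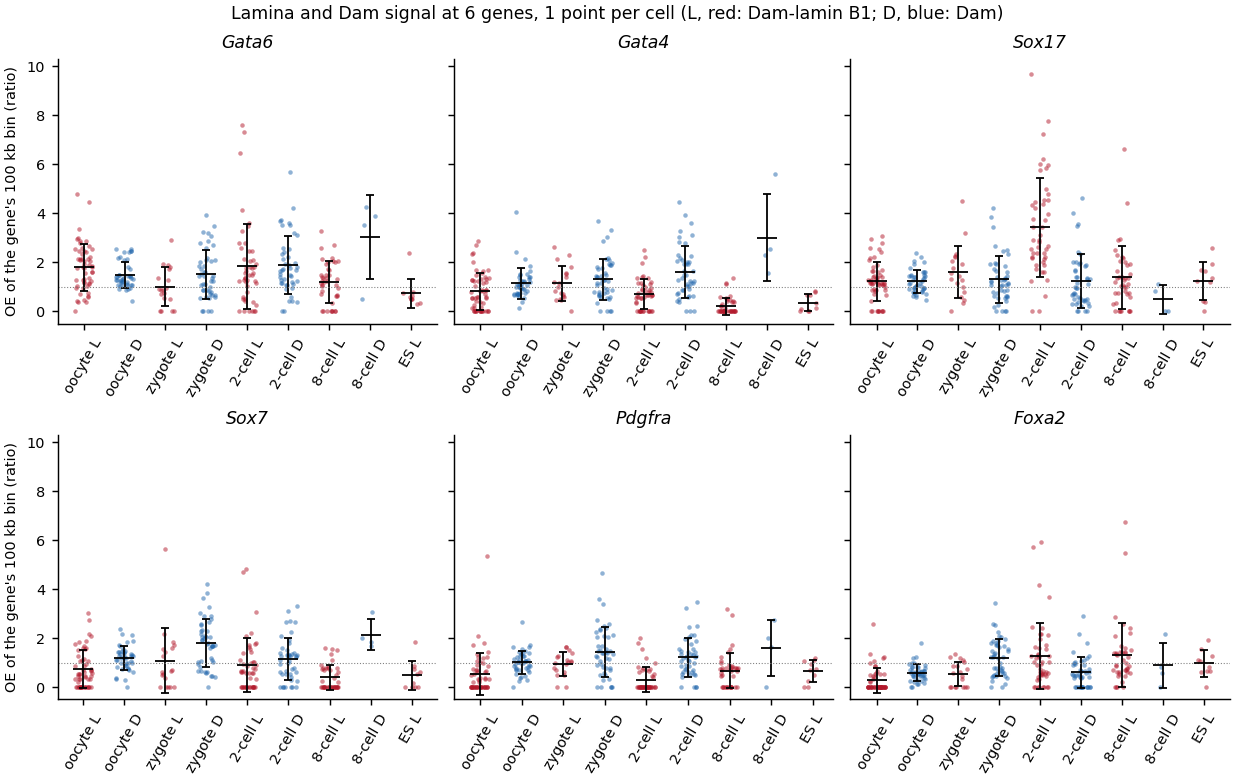
OE of the bin of each gene (y axis, ratio) in every single cell of each stage (x axis) with Dam-lamin B1 (L, red) or Dam (D, blue); bars give the mean ± SD and the dotted line an OE of 1. Sox17 with Dam-lamin B1 at the 2-cell stage, with a mean of 3.43, stands highest, and Gata4 with Dam-lamin B1 at the 8-cell stage, with a mean of 0.218, stands lowest.

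Gata6, the zinc-finger factor at the head of the lineage, had an OE between 0 and 4.78 (median 1.82) in oocytes with Dam-lamin B1, and 45 of 56 cells (80.4%, exact 95% interval 67.6% to 89.8%) reached an OE of 1. With Dam alone it ran from 0.440 to 2.54 (median 1.31), and 38 of 43 oocytes reached 1. The means, 1.81 ± 0.96 (SD, n = 56) and 1.49 ± 0.54 (SD, n = 43), were at the 97.9 and 93.5 percentiles of all bins for their groups, so this bin was high in oocytes whichever construct was used. In zygotes the Dam-lamin B1 mean was 1.00 ± 0.79 (SD, n = 19; lowest 0, median 0.893, highest 2.93) and the Dam mean 1.51 ± 0.99 (SD, n = 46; lowest 0, median 1.39, highest 3.94). At the 2-cell stage both constructs gave nearly the same mean, 1.85 ± 1.73 (SD, n = 47) and 1.89 ± 1.19 (SD, n = 45). In cells of 8-cell embryos Dam-lamin B1 gave 1.20 ± 0.84 (SD, n = 41; lowest 0, median 1.23, highest 3.29), while the 4 Dam cells had 3.89, 0.525, 3.54 and 4.25, so 3 of the 4 were above every Dam-lamin B1 cell. How large a share of all bins separates in this way was not counted. ES cells averaged 0.735 ± 0.604 (SD, n = 10), with 1 cell at 2.40 and the next at 0.800.

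Gata4, which encodes a second GATA factor of the lineage, had its lowest Dam-lamin B1 signal at the 8-cell stage. Its OE there ran from 0 to 1.35 with a median of 0: 25 of 41 cells had no read in the bin, and 3 of 41 (7.32%, exact 95% interval 1.54% to 19.9%) reached an OE of 1. The mean, 0.218 ± 0.351 (SD, n = 41), was at the 1.50 percentile of all bins. The 4 Dam cells of that stage had 2.57, 2.31, 1.56 and 5.60, all above the highest Dam-lamin B1 cell, although these values rest on 2 to 18 reads. The share of all bins without overlap was not counted. Of bins in neither LAD list, 79.9% had a lower mean with Dam-lamin B1 than with Dam at this stage. Earlier means with Dam-lamin B1 were 0.821 ± 0.757 (SD, n = 56) in oocytes, 1.14 ± 0.71 (SD, n = 19) in zygotes and 0.712 ± 0.612 (SD, n = 47) at the 2-cell stage. With Dam they were 1.16 ± 0.63 (SD, n = 43), 1.31 ± 0.85 (SD, n = 46) and 1.60 ± 1.06 (SD, n = 45), and the 2 constructs overlapped widely at each of these stages. In ES cells Gata4 had 0.356 ± 0.351 (SD, n = 10), and 0 of 10 cells reached an OE of 1 (exact 95% interval up to 30.8%).

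Sox17, an HMG-box factor needed to maintain the primitive endoderm, had its highest signal at the 2-cell stage. With Dam-lamin B1 the OE ran from 0 to 9.70 (median 2.91), 44 of 47 cells reached an OE of 1 (93.6%, exact 95% interval 82.5% to 98.7%) and 37 of 47 reached 2. With Dam it ran from 0 to 4.63 (median 0.955), and 21 of 45 cells (46.7%, exact 95% interval 31.7% to 62.1%) reached 1. The Dam-lamin B1 mean of 3.43 ± 2.01 (SD, n = 47) was at the 99.9 percentile of all bins, and the Dam mean of 1.24 ± 1.09 (SD, n = 45) at the 73.9 percentile. In oocytes both constructs gave 1.23, with an SD of 0.79 (n = 56) for Dam-lamin B1 and 0.46 (n = 43) for Dam. Zygotes had 1.60 ± 1.07 (SD, n = 19) with Dam-lamin B1 and 1.31 ± 0.96 (SD, n = 46) with Dam, and these overlapped. At the 8-cell stage Dam-lamin B1 gave 1.39 ± 1.28 (SD, n = 41; lowest 0, median 1.20, highest 6.63), and the 4 Dam cells had 0.839, 1.13, 0 and 0, each within the range of the Dam-lamin B1 cells. ES cells had 1.25 ± 0.79 (SD, n = 10), with 7 of 10 at an OE of 1 or more.

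Sox7, the other SOX factor of the same subgroup, went the other way at the 8-cell stage. Its Dam-lamin B1 signal there ran from 0 to 1.59 with a median of 0, and 22 of 41 cells had no read in the bin. The 4 Dam cells had 1.82, 3.07, 1.66 and 1.99, all above the highest Dam-lamin B1 cell, on 2 to 6 reads each. As for Gata4, the share of all bins without overlap was not counted. Dam-lamin B1 means were 0.729 ± 0.763 (SD, n = 56) in oocytes, 1.08 ± 1.31 (SD, n = 19) in zygotes, 0.895 ± 1.10 (SD, n = 47) at the 2-cell stage, 0.390 ± 0.508 (SD, n = 41) at the 8-cell stage and 0.472 ± 0.591 (SD, n = 10) in ES cells. With Dam they were 1.19 ± 0.50 (SD, n = 43), 1.79 ± 0.98 (SD, n = 46), 1.14 ± 0.87 (SD, n = 45) and 2.13 ± 0.64 (SD, n = 4), above the Dam-lamin B1 mean of the same stage each time.

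Pdgfra, the receptor that marks primitive endoderm precursors, had little Dam-lamin B1 signal at the 2-cell stage, although its bin lies in an ICM LAD. There 32 of 47 cells had no read in the bin, 4 of 47 (8.51%, exact 95% interval 2.37% to 20.4%) reached an OE of 1, and the highest had 2.01. With Dam the OE ran from 0 to 3.45 (median 1.20) and 26 of 45 cells reached 1. The Dam-lamin B1 means were 0.530 ± 0.859 (SD, n = 56) in oocytes, 0.945 ± 0.474 (SD, n = 19) in zygotes, 0.296 ± 0.515 (SD, n = 47) at the 2-cell stage, 0.672 ± 0.729 (SD, n = 41) at the 8-cell stage and 0.648 ± 0.444 (SD, n = 10) in ES cells. The Dam means were 1.01 ± 0.48 (SD, n = 43), 1.44 ± 1.01 (SD, n = 46) and 1.21 ± 0.79 (SD, n = 45), and the 4 cells of 8-cell embryos had 2.72, 0, 1.65 and 1.98. The Dam-lamin B1 mean was thus below the Dam mean at all 4 stages, while single cells overlapped.

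Foxa2, a forkhead factor that can bind closed chromatin and acts in visceral and definitive endoderm, had its lowest signal in oocytes. With Dam-lamin B1 37 of 56 oocytes had no read in the bin and 5 of 56 (8.93%, exact 95% interval 2.96% to 19.6%) reached an OE of 1, while with Dam 3 of 43 did, at a median of 0.590. The Dam-lamin B1 mean was 0.268 ± 0.491 (SD, n = 56) in oocytes, 0.543 ± 0.495 (SD, n = 19) in zygotes, 1.26 ± 1.34 (SD, n = 47) at the 2-cell stage, 1.31 ± 1.31 (SD, n = 41) at the 8-cell stage and 0.970 ± 0.541 (SD, n = 10) in ES cells. The Dam mean was 0.593 ± 0.348 (SD, n = 43), 1.20 ± 0.76 (SD, n = 46) and 0.603 ± 0.624 (SD, n = 45), and the 4 cells of 8-cell embryos had 0.807, 2.18, 0 and 0.587. So the Dam mean exceeded the Dam-lamin B1 mean in oocytes and zygotes and below it at the 2-cell stage. At the 2-cell stage 23 of 47 cells with Dam-lamin B1 and 9 of 45 with Dam reached an OE of 1.

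Ordered by mean, neighbouring stages of a gene never differed by more than the larger of their SDs with Dam-lamin B1 (0 of 24 steps), and with Dam they did in 1 of 18 steps, at Sox17. Sorting makes such steps small. From the highest to the lowest stage, the Dam-lamin B1 means differed by more than the larger of the 2 SDs for Gata4 (0.926 against 0.712), Sox17 (2.20 against 2.01) and Pdgfra (0.649 against 0.515), and by less for Gata6, Sox7 and Foxa2. The highest Dam-lamin B1 mean was at the 2-cell stage for Gata6 and Sox17, in the zygote for Gata4, Sox7 and Pdgfra, and at the 8-cell stage for Foxa2.

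To set the constructs side by side, the log2 ratio of mean OE with Dam-lamin B1 to mean OE with Dam was taken per stage, with 0.25 added to both means. For Sox17 it was 0.00 in oocytes, 0.25 in zygotes, 1.31 at the 2-cell and 1.14 at the 8-cell stage. Foxa2 had -0.70, -0.87, 0.82 and 0.45 at the same stages. The median over bins in both LAD lists was -0.11, 0.40, 0.49 and 1.19, so among these 2 LAD genes Sox17 stood above that median at the 2-cell stage and close to it at the 8-cell stage, and Foxa2 stood below it at the other 3 stages.

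Gata4 had log2 ratios of -0.39, -0.16, -0.94 and -2.80 from oocyte to 8-cell stage, and Sox7 -0.55, -0.62, -0.28 and -1.90. Gata6 had 0.24, -0.49, -0.03 and -1.19. Bins in neither list had medians of -0.28, -0.73, -0.99 and -1.12, so these 3 genes outside LADs were at or below that level at the 8-cell stage, with Gata4 at the 0.525 percentile of all bins. Pdgfra had -0.69, -0.50, -1.42 and -1.0, below the median of the bins of the ICM list alone at each stage (-0.24, -0.29, 0.10 and 0.50). In all, 7 of 24 gene and stage pairs were above 0. Over all bins the median log2 ratio was -0.19, -0.20, 0.11 and 0.60 from oocyte to 8-cell stage. The median bin was thus below 0 in oocytes and zygotes, and above 0 at the 2-cell and 8-cell stages. Whether 7 of 24 pairs is unusual against all bins was not tested. The 8-cell values rest on 4 Dam cells, and leaving out any 1 of them left all 24 signs as they were. At equal reads per cell 4 of the 24 signs turned, with Foxa2 at -0.0069 at the 8-cell stage, Gata4 at 0.18 in zygotes, Sox17 at -0.28 in oocytes and Gata6 at 0.0093 at the 2-cell stage. With the mean of 3 bins 3 turned, Gata6 in oocytes (-0.054) and at the 2-cell stage (0.32) and Sox17 in oocytes (-0.10).

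**Figure D2:**
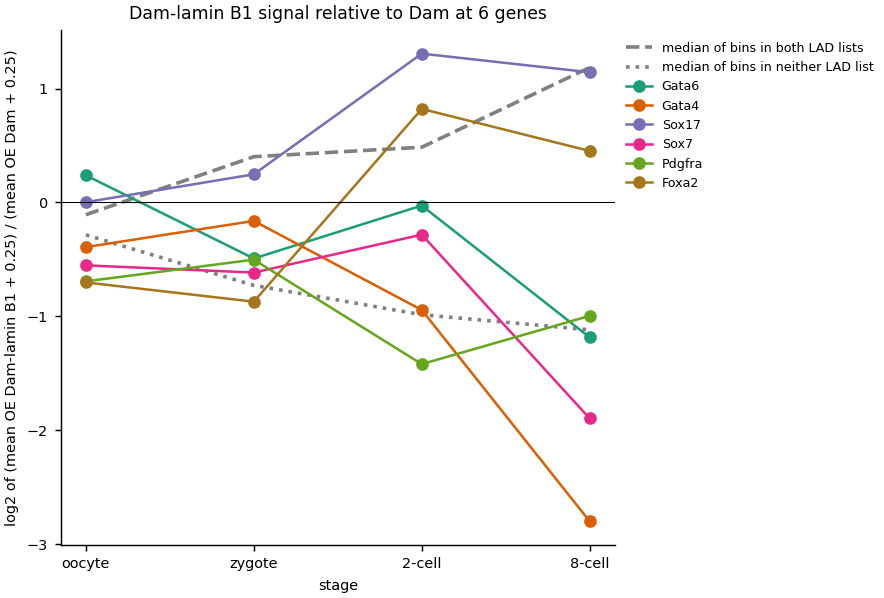
The log2 ratio of mean OE with Dam-lamin B1 to mean OE with Dam, each plus 0.25 (y axis), for the 6 genes at the 4 stages with both constructs (x axis), 1 line per gene; grey lines give the medians of bins in both LAD lists (dashed) and in neither (dotted). Sox17 and Foxa2 are above 0 at the 2-cell and 8-cell stages, and Gata4 lies lowest, at -2.80 at the 8-cell stage.

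The windows show whether a value belongs to the gene's own bin or to a wider stretch. At the 2-cell stage the Sox17 bin, at 3.43, was the highest of its 11 bins, whose other 10 averaged 1.75. The lowest bin of that window, which holds Lypla1 and Tcea1, had 0.171 in spite of lying in the same LAD. Sox17 was also the highest bin of its window in zygotes (1.60, flanks 1.03) and at the 8-cell stage (1.39, flanks 0.889) with Dam-lamin B1. At the 2-cell stage the surroundings were high as well, up to 2.76 in a flanking bin, against a median of 1.11 over bins in both LAD lists, and Sox17 was their peak. In oocytes 2 and in ES cells 4 of the 10 flanking bins were higher.

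The Gata6 bin was the highest of its window in oocytes with Dam-lamin B1 (1.81, flanks 1.04) and with Dam (1.49, flanks 1.20). The same held with Dam in zygotes (1.51, flanks 1.06), at the 2-cell stage (1.89, flanks 1.12) and at the 8-cell stage (3.05, flanks 0.919). With Dam-lamin B1 at the 2-cell stage, 3 flanking bins were higher than Gata6, up to 2.29 in the bin to its left. So the Gata6 bin topped its window in the Dam map at each of the 4 stages, and in the Dam-lamin B1 map in oocytes. The highest flanking bin with Dam was close to it in oocytes (1.45) and zygotes (1.38), and lower at the 2-cell (1.47) and 8-cell stages (2.06). With Dam-lamin B1 in oocytes it was 1.27. The 8-cell Dam mean rests on 4 cells with 1 to 15 reads in the Gata6 bin.

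Pdgfra was the lowest of its 11 bins at the 2-cell stage with Dam-lamin B1 (0.296, flanks 0.875). At the 8-cell stage 9 of the 10 flanking bins were higher than Pdgfra, up to 1.92 in the bin of Kit, the gene for another receptor tyrosine kinase. The lowest flanking bin had 0.604 there, against 0.672 at Pdgfra. In zygotes (0.945, flanks 0.677) 1 flanking bin was higher.

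Gata4 was the highest bin of its window in zygotes (1.14, flanks 0.683) and at the 2-cell stage (0.712, flanks 0.469) with Dam-lamin B1, and the lowest in ES cells (0.356, flanks 0.559). The window of Gata4 was low as a whole at the 8-cell stage, with flanks at 0.414. Sox7 was the highest of its window in zygotes with Dam-lamin B1 (1.08, flanks 0.745) and also with Dam (1.79, flanks 1.37). At the 8-cell stage its flanks averaged 0.537 with Dam-lamin B1. Foxa2 sat close to its surroundings at the 2-cell stage (1.26, flanks 1.25), and below them at the 8-cell stage (1.31, flanks 1.67) and in ES cells (0.970, flanks 1.58). In oocytes the Foxa2 window was low throughout, with a flank mean of 0.321.

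**Figure D3:**
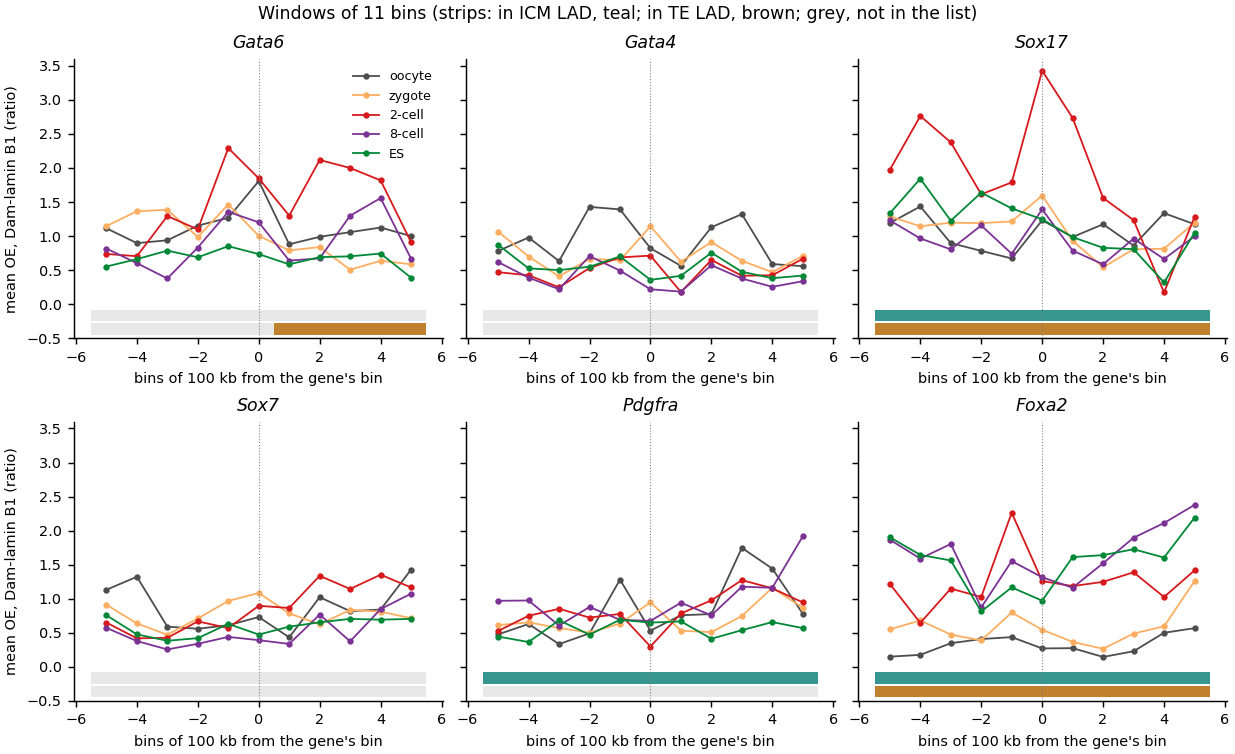
Mean OE with Dam-lamin B1 (y axis, ratio) in the 11 bins of 100 kb around each gene (x axis, bins from the gene's bin, which is 0), 1 line per stage; the strips below mark bins in an ICM LAD (teal) or a TE LAD (brown), and grey bins outside the list. The Sox17 bin peaks at 3.43 at the 2-cell stage, and the Pdgfra bin dips to 0.296 there.

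Among whole zygotes, where each cell is a separate embryo, Dam-lamin B1 (5 ng/µl) and Dam (20 ng/µl) could be tested, but not apart from their amounts. Sox7 and Foxa2 had less signal with Dam-lamin B1 than with Dam, and the other 4 genes did not pass the test. Sox7 had 1.08 with Dam-lamin B1 and 1.79 with Dam, a difference of -0.98 (SE 0.26) on the log2(OE + 0.25) scale with an adjusted p of 0.000781 in limma (Benjamini-Hochberg over 23969 bins), and 16 of 19 Dam-lamin B1 zygotes were below the Dam mean. Foxa2, in spite of its place in LADs of both blastocyst tissues, had 0.543 against 1.20, a difference of -0.99 (SE 0.28) with an adjusted p of 0.00179, and 17 of 19 were below. In the same comparison 59.8% of all bins passed the test and 37.8% passed it as lower, so 2 of 6 lower is about the share of all bins. No mother, litter or day is given in the labels, and p-values measure only the spread between these embryos.

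The differences of the other 4 genes were -0.57 (SE 0.27, adjusted p = 0.0593) for Gata6, -0.35 (SE 0.27, adjusted p = 0.259) for Pdgfra, -0.11 (SE 0.27, adjusted p = 0.734) for Gata4 and 0.28 (SE 0.27, adjusted p = 0.354) for Sox17, all in limma. The median of the 6 genes was -0.46, against -0.36 over all bins. The call for Gata4 depended on the bin: the bin of its left end, which also holds Ctsb, Fdft1 and Neil2, had a difference of -1.33 with an adjusted p of 6.59e-06, an alternative chosen after seeing the data. Averaging each bin with its 2 neighbours raised the count to 4 of 6, with Gata4 at -0.71 and Pdgfra at -0.58, while the count over all bins rose from 14341 of 23969 to 18204 of 23999. Zygotes with Dam-lamin B1 were shallower than those with Dam, with medians of 41761 and 94203 recovered reads. At equal reads Sox7 and Foxa2 still passed, while Gata4 stood at 0.26.

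**Figure D4:**
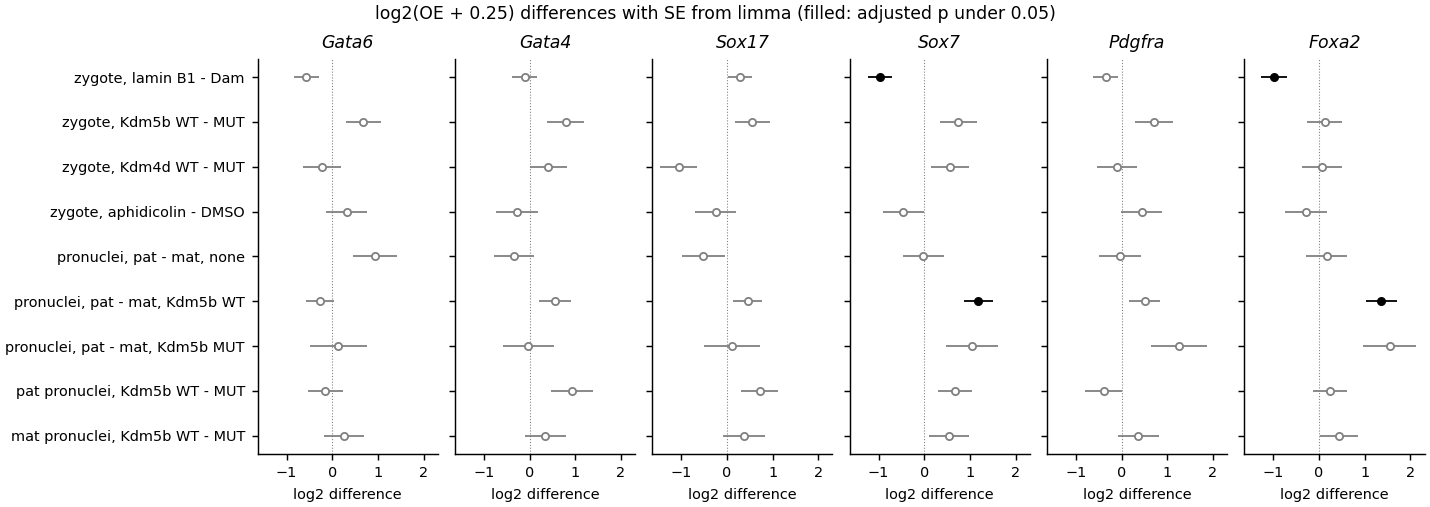
Differences on the log2(OE + 0.25) scale (x axis) with their SE from limma for each gene in each tested comparison (y axis); filled symbols passed an adjusted p of 0.05. Filled symbols are Sox7 and Foxa2 in the zygote comparison of Dam-lamin B1 with Dam, both below 0, and the same genes in paternal against maternal pronuclei with wild-type Kdm5b, both above 0.

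Zygotes with wild-type Kdm5b had a higher mean OE than those with mutant Kdm5b at all 6 genes, but 0 of 6 passed limma's test, as did 0 of 23939 bins (0%). At an unadjusted p under 0.05 there were 0 of 6 genes and 4095 bins (17.1%). Gata4 had 0.745 ± 0.445 (SD, n = 14) with wild type and 0.387 ± 0.451 (SD, n = 9) with mutant Kdm5b, a log2 difference of 0.80 (SE 0.41, adjusted p = 0.295). The differences of Sox7, Pdgfra, Gata6 and Sox17 were 0.74, 0.71, 0.68 and 0.55, and that of Foxa2, the smallest, was 0.12 (SE 0.39, adjusted p = 0.889). The median of the 6 was 0.69, against 0.24 over all bins. It was not particular to these genes among the gene lists described below. Epiblast, trophectoderm and paralog lists had medians of 0.72, 0.71 and 0.66. Signalling genes, lineage products and housekeeping genes had 0.62, 0.56 and 0.46, and the lamina-contacting list had -0.02. Recovered depth also differed, with medians of 216094 reads with wild-type and 85708 with mutant Kdm5b, and at equal reads 0 of 6 genes passed as well. In simulated data of this design 47 of 100 bins changed 4-fold were recovered.

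With Kdm4d, 0 of 6 genes passed limma's test, and 0.00418% of all bins did. Sox17 had the largest difference of the 6, with 1.06 ± 0.85 (SD, n = 12) in zygotes with wild-type and 1.98 ± 1.01 (SD, n = 10) in zygotes with mutant Kdm4d. Its log2 difference of -1.06 (SE 0.40) had an unadjusted p of 0.0089 in limma and an adjusted p of 1.00, and 11 of 12 wild-type zygotes were below the mutant mean. It was the single member at an unadjusted p under 0.05, where 938 bins (3.92%) stood. The other 5 genes had differences between -0.23 (Gata6) and 0.56 (Sox7).

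With aphidicolin against DMSO, 0 of 6 genes and 0.00836% of all bins passed limma's test, and at an unadjusted p under 0.05 there were 0 genes and 1318 bins (5.51%). Differences ran from -0.46 (SE 0.45) at Sox7, with 0.861 ± 0.566 (SD, n = 9) against 1.16 ± 0.55 (SD, n = 11), to 0.43 (SE 0.45) at Pdgfra, with 0.979 ± 0.495 (SD, n = 9) against 0.658 ± 0.344 (SD, n = 11). For both Kdm4d and aphidicolin 19 of 100 bins changed 4-fold were recovered in simulated data, so even changes of this size were mostly missed. Of 100 bins changed 2-fold, 1 was recovered for Kdm4d and 0 for aphidicolin.

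In pronuclei the paternal and the maternal genome were mapped apart, which asks whether the Dam-lamin B1 signal of a locus differs between the 2 parental genomes. Neither the single pronuclei nor the treated zygotes above had cells with Dam alone. In these comparisons a difference in lamina contact therefore cannot be told apart from one in accessibility. Without Kdm5b 0 of 6 genes passed limma's test, and 2.1% of all bins did. At an unadjusted p under 0.05 there were 0 of 6 genes and 3901 bins (16.3%). Gata6 had the largest difference, with 1.23 ± 0.90 (SD, n = 15) in paternal and 0.583 ± 0.450 (SD, n = 10) in maternal pronuclei (log2 difference 0.93, SE 0.48, adjusted p = 0.319), and 13 of 15 paternal pronuclei were above the maternal mean. The Gata6 bin was the highest of its 11 bins in paternal pronuclei and the lowest in maternal ones. Sox17 went the other way, with 0.733 ± 0.727 (SD, n = 15) in paternal and 1.46 ± 1.55 (SD, n = 10) in maternal pronuclei, a difference of -0.52 (SE 0.47, adjusted p = 0.631). The other 4 genes differed by between -0.35 (Gata4) and 0.16 (Foxa2).

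With wild-type Kdm5b, Sox7 and Foxa2 had more Dam-lamin B1 signal in paternal than in maternal pronuclei, and the other 4 genes did not pass. Foxa2 ran from 0.410 to 3.44 (median 1.19) in 19 paternal and from 0 to 1.74 (median 0.474) in 19 maternal pronuclei. Its means of 1.42 and 0.539 differed by 1.37 (SE 0.34) on the log2 scale, with an adjusted p of 0.00182 in limma, and 18 of 19 paternal pronuclei were above the maternal mean. Sox7 ran from 0.119 to 3.47 (median 1.34) in paternal and from 0 to 1.24 (median 0.534) in maternal pronuclei. Its means of 1.42 and 0.551 differed by 1.18 (SE 0.33, adjusted p = 0.0059), again with 18 of 19 above. The 2 sets of pronuclei overlapped for both genes.

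In that comparison 15.6% of all bins passed and 14.4% passed as higher as Sox7 and Foxa2 did. Gata4 (0.56, adjusted p = 0.294), Pdgfra (0.50, adjusted p = 0.35), Sox17 (0.45, adjusted p = 0.379) and Gata6 (-0.28, adjusted p = 0.596) did not pass in limma. Paternal pronuclei were deeper, with a median of 104910 recovered reads against 74878. At equal reads neither Sox7 (1.10, adjusted p = 0.115) nor Foxa2 (1.15, adjusted p = 0.113) passed, with nearly the same difference in size. Averaged with its 2 neighbouring bins Gata4 passed as well (0.56, adjusted p = 0.046), when 5976 of 24007 bins did. These pronuclei also had the low LAD contrast given above, so the values of Sox7, outside LADs, and Foxa2, inside them, come from nuclei in which LAD and non-LAD bins differed little.

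With mutant Kdm5b 0 of 6 genes passed limma's test between paternal (6) and maternal (13) pronuclei, against 0.777% of all bins. At an unadjusted p under 0.05 there were 2 of 6 genes, Foxa2 and Pdgfra, and 3365 bins (14.1%). Foxa2 had 1.45 ± 1.64 (SD, n = 6) against 0.271 ± 0.333 (SD, n = 13), a log2 difference of 1.55 (SE 0.58, adjusted p = 0.159), and its highest paternal pronucleus had 4.71 where the next had 1.31. Pdgfra had 1.20 ± 0.44 (SD, n = 6) against 0.640 ± 0.913 (SD, n = 13), a difference of 1.25 (SE 0.62, adjusted p = 0.331). Sox7 had 1.05 (SE 0.57, adjusted p = 0.392), and Gata6, Sox17 and Gata4 had 0.13, 0.11 and -0.03. Averaged with its 2 neighbouring bins Sox7 passed (1.30, adjusted p = 0.032), as did 848 of 23991 bins. Only 14 of 100 bins changed 4-fold were recovered in simulated data of this size.

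**Figure D5:**
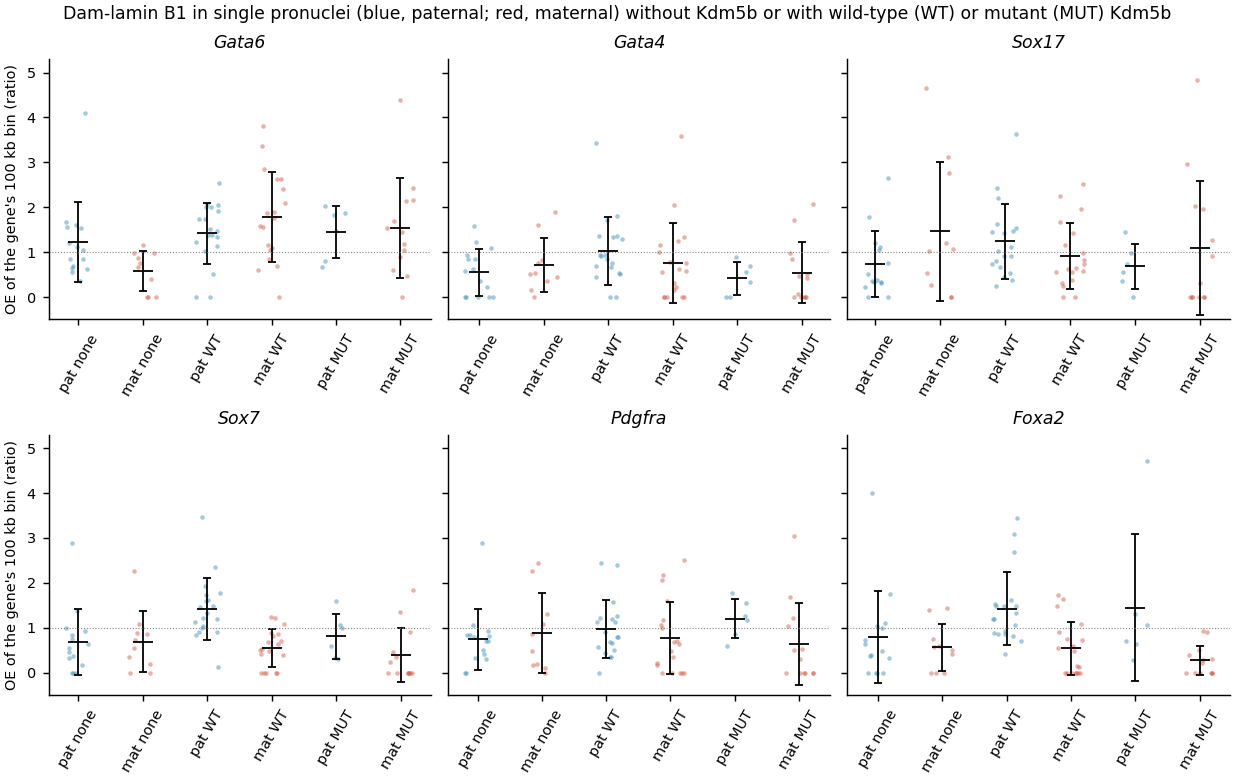
OE of the bin of each gene (y axis, ratio) in single paternal (blue) and maternal (red) pronuclei with Dam-lamin B1 (x axis), without Kdm5b or with wild-type or mutant Kdm5b; bars give the mean ± SD and the dotted line an OE of 1. With wild-type Kdm5b Foxa2 averaged 1.42 in paternal and 0.539 in maternal pronuclei, and Sox7 1.42 and 0.551.

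Within 1 kind of pronucleus, wild-type against mutant Kdm5b gave 0 of 6 genes past limma's threshold in paternal pronuclei, where 0.0167% of all bins passed, and 0 of 6 in maternal pronuclei, where 0% did. In paternal pronuclei Gata4 had 1.03 ± 0.77 (SD, n = 19) with wild-type and 0.413 ± 0.368 (SD, n = 6) with mutant Kdm5b. Its log2 difference was 0.93 (SE 0.46) with an unadjusted p of 0.0454 and an adjusted p of 0.346 in limma. It was the 1 member at an unadjusted p under 0.05 there, beside 3333 bins (13.9%). Sox17 had 1.24 ± 0.83 (SD, n = 19) against 0.682 ± 0.501 (SD, n = 6), a difference of 0.71 (adjusted p = 0.42), and passed when averaged with its 2 neighbouring bins (1.03, adjusted p = 0.0314), as did 1073 of 24006 bins. In maternal pronuclei there were 0 genes and 2237 bins (9.34%), and the 6 differences ran from 0.26 (Gata6) to 0.53 (Sox7).

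The difference between the 2 kinds of pronuclei in the effect of Kdm5b was tested as an interaction. It passed for 0 of 6 genes and for 0.00417% of all bins in limma, and at an unadjusted p under 0.05 for 0 genes and 1450 bins (6.05%). Its values ran from -0.75 (SE 0.65) at Pdgfra to 0.58 (SE 0.65) at Gata4. The comparisons of pronuclei share samples, so their values for Sox7 and Foxa2 are set side by side and are not independent.

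Other genes of the lineage were read in the same zygote comparison of Dam-lamin B1 with Dam, where 22.0% of all bins were higher and 37.8% lower. Of 29 bins of primitive endoderm products and later regulators, 2 were higher and 21 lower, with a median of -0.92 against -0.36 over all bins. The higher ones held Rspo3 (1.16) and Dkk1 (0.97), modulators of WNT signalling, both in LADs of the ICM and TE lists. The 4 lowest held Eomes (-1.32), a T-box factor also listed with the trophectoderm, Hnf4a (-1.30), a nuclear receptor of the visceral endoderm, Amn (-1.29), a subunit of the uptake receptor of visceral endoderm, and Col4a2 (-1.27), a basement membrane collagen. Of these bins, 18 of 29 lay in neither LAD list, against 3 of 6 for the regulators.

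Among 23 bins of FGF and PDGF signalling genes, 1 was higher, Pdgfc (1.28), which encodes a ligand of the Pdgfra receptor, and 19 were lower, with a median of -1.04. The receptors Fgfr3 (-1.60), Fgfr4 (-1.36) and Fgfr1 (-1.27) and the kinase Map2k2 (-1.59) were lowest. Of 9 bins of paralogs of the 6 genes, 0 were higher and 5 lower, among them Pdgfrb (-1.20), Kdr (-0.96), Foxa1 (-0.85) and Foxa3 (-0.83), with a median of -0.78. Epiblast and pluripotency genes gave 0 higher and 10 lower of 13 (median -1.02), led by Pou5f1 (-1.39), Esrrb (-1.36), Tdgf1 (-1.28) and Sox2 (-1.06). Trophectoderm genes gave 0 higher and 9 lower of 10 (median -0.82), with Cdx2 (-1.11), Tfap2c (-1.03) and Hand1 (-0.97) after Eomes.

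As references, 6 of 7 bins of a list of genes chosen as lamina-contacting (Pcdh9, Cntnap2, Lrp1b, Cftr, Csmd1, Dlg2 and Ctnna2) were higher and 0 lower (median 1.31), and 8 of 8 placed housekeeping genes were lower (median -0.90). Of the 7 bins chosen as lamina-contacting, 3 lay in both LAD lists, and that of Pcdh9, the highest (2.17), lay in neither. These lists were chosen with earlier results of these data known. They are therefore no independent scale for the median of the 6 regulators, -0.46, and are set beside it as a description. In paternal against maternal pronuclei with wild-type Kdm5b, where 14.4% of bins were higher, 5 of 29 bins of lineage products were higher, among them Apoa1 (1.31), Fst (1.21) and Otx2 (1.04). In the same comparison 2 of 23 signalling bins were higher (Pdgfa 1.60, which encodes the ligand of Pdgfra, and Fgf4 1.34), 2 of 9 paralogs (Gata5 1.14, Kit 1.09), 2 of 13 epiblast bins (Fgf4 and Sall4 1.00), 0 of 10 trophectoderm bins, 1 of 7 lamina references (Ctnna2 1.41) and 1 of 8 housekeeping bins (Sdha 0.93), and 0 of any list were lower. In the other comparisons 1 bin of these lists passed, that of Tbx3 (2.05, adjusted p = 0.0446 in limma) in paternal against maternal pronuclei with mutant Kdm5b.

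Likeness of pattern was measured as Pearson's r of log2(mean OE + 0.25) over the 23 groups of single cells, which share stages, constructs and depth, and it is given with no test. Gata4 and Sox7, 712 kb apart, were the most alike of the 15 pairs among the 6 genes (r = 0.86), followed by Gata4 with Pdgfra (0.61) and Sox7 with Pdgfra (0.60). Sox17 and Pdgfra were the least alike (-0.47). Outside their windows, the bins most like Gata4 held Kcmf1 (0.93), Timm17a, Lmod1 and Shisa4 (0.92) and Gtf3c4 and Ddx31 (0.92). Those most like Sox7 held Sox8 and Rab20 (0.86 each) and again Kcmf1 (0.86), and those most like Gata6 held Il17rd (0.86), a set of 6 genes with Mllt11 (0.86), and Atf1 with Tmprss12 (0.85).

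The bins most like Pdgfra held Hmcn2 (0.87), Col6a1 (0.86), and Cpz, Trmt44 and Acox3 (0.85), each in neither LAD list although Pdgfra is in an ICM LAD. Sox17 had weaker matches, Sox5 (0.80), Penk (0.78) and Plxna2 (0.77), all in both LAD lists, as Sox17 is. Foxa2 matched Ankfn1 (0.88), in both lists, Abcc12 (0.87), in neither, and Timp3 (0.81), in the TE list alone. The 4 genes with low Dam-lamin B1 against Dam signal at the 8-cell stage had their nearest patterns in bins outside both lists. Since r was taken over groups that include the 8-cell ones, this repeats the same values and adds no support.

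Per cell, a median of 2 of the 6 bins reached an OE of 1 with Dam-lamin B1 in oocytes, 3 in both zygotes and cells of 2-cell embryos, and 2 at the 8-cell stage and in ES cells. With Dam the medians were 3, 4, 3 and 4 from oocyte to 8-cell stage. No cell of these 5 Dam-lamin B1 groups had all 6 bins at an OE of 1, and 2 of 56 oocytes had none. In pronuclei with wild-type Kdm5b the median was 4 of 6 in paternal and 2 of 6 in maternal nuclei, against 2.5 and 1 with mutant Kdm5b and 2 and 1 without Kdm5b. The share of all bins at an OE of 1 per cell was not computed, so these counts are not a result about the 6 genes. With wild-type Kdm5b the median log2 difference over all bins was 0.26 towards paternal pronuclei, which were also deeper. Gata4 and Sox7, neighbours on chromosome 14, were both at an OE of 1 or more in 5 of 56 oocytes, 4 of 19 zygotes, 3 of 47 cells of 2-cell embryos and 0 of 41 cells of 8-cell embryos with Dam-lamin B1.

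The Dam-lamin B1 amount could be followed in oocytes alone. At 5 ng/µl, and in the sets labelled 20 ng and 50 ng, Gata6 had 1.81 ± 0.96 (SD, n = 56), 1.26 ± 0.73 (SD, n = 17) and 1.46 ± 0.67 (SD, n = 23). Foxa2 had 0.268 ± 0.491, 0.396 ± 0.487 and 0.546 ± 0.592 in the same sets, and remained the lowest of the 6 genes in each. Gata4 ran from 0.821 to 1.06, Sox17 from 0.855 to 1.23, Sox7 from 0.729 to 1.23 and Pdgfra from 0.530 to 0.835 over the 3 sets. These differences in mean were all within the larger SD of the sets compared.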

How the data were processed

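Single-cell DamID values were taken from the table the authors deposited, whose values are ratios (observed over expected reads, OE) per autosomal bin of 100 kb and cell. The submitters' processing notes name cutadapt, BWA 0.7.12 and build mm10. For the expected number and the deposited LAD intervals, no method is given in the sources used here. Of 24639 bins, 617 had no value. A bin belonged to a LAD list where the list covered at least 50% of it.

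Samples were grouped by their labels, and 14 of 512 cells with contradicting labels were left out. Pools of cells were not used here. The 6 genes and 7 comparison lists were chosen with earlier results of these data known. The 6 genes are named throughout. Genes of a list are named where their bin passed the test, at most 4 per list and direction by size (1 gene that this rule names is not reported here), and from a window the genes of its highest or lowest bin. For likeness, the 3 bins with the highest r are named. Gene positions, strands and promoters came from RefSeq tables (GRCm38.p6).

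Tests used limma 3.58.1 in R 4.3.3 on log2(OE + 0.25), with only the groups compared in each fit. Bins with a mean OE under 0.1 were left out, and p-values were adjusted by Benjamini-Hochberg over all bins tested, with a threshold of 0.05. Fold changes of low bins are understated on this scale. On simulated cells of the zygote comparison of Dam-lamin B1 with Dam, 78 of 100 bins changed 4-fold and 8 of 100 changed 2-fold were recovered. All simulations used a fixed log-normal spread between cells and changed few bins, so recovery in the real data may differ. Reads were recovered from whole-number steps of the ratio (at least 99.9% of values up to 20 reads were whole within 0.02 reads) and used only for depth and for thinning to equal reads. Intervals of shares are exact Clopper-Pearson intervals at 95% and cover counting error over cells only. Other values were computed with Python 3.11.15, NumPy 2.4.6, SciPy 1.17.1 and pandas 2.3.3. Alternatives were pseudocounts of 0.1 and 1, no filter, the mean of 3 bins, equal reads, log10 depth as a covariate, a replicate block, other bins or LAD rules, medians over cells, a contact threshold of 2, and leaving out each 8-cell Dam cell.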

Additional observations from a re-analysis of the deposited data

Results flagged for a closer look

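Among groups of 4 to 10 cells, 5 of 42 gene and group values had a highest cell whose gap to the next was large for the range of its group by Dixon's criterion. In normally distributed values chance alone meets it in about 1 in 20 groups. OE values rest on a few reads and cannot fall below 0, so 5 of 42 does not measure an excess. Foxa2 had 4.71 in a paternal pronucleus with mutant Kdm5b, on 9 reads, where the next of 6 had 1.31. Gata6 had 2.40 in 1 ES cell, on 4 reads, where the next of 10 had 0.800, and Sox7 had 1.86 in another ES cell, on 8 reads, where the next had 0.861. Sox7 had 2.27 in a maternal pronucleus without Kdm5b, on 4 reads, where the next of 10 had 1.09. Sox17 had 2.26 in a zygote with mutant Kdm5b, on 8 reads, where the next of 9 had 1.06. None of these cells enters a difference that passed the test.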

How the results depend on the processing

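Sox7 and Foxa2 stayed lower with Dam-lamin B1 than with Dam in zygotes under all 8 alternatives (-1.30 to -0.53 and -1.37 to -0.50, highest adjusted p 0.034 and 0.0181 in limma). Both were higher in paternal pronuclei with wild-type Kdm5b under all 8 (0.64 to 1.55 and 0.69 to 1.87), passing the test under 7. At equal reads the differences were 1.10 and 1.15 and did not pass (adjusted p 0.115 and 0.113 in limma). For both genes 1 of the 8, the bin of the start site, is the bin already used and repeats the main fit. That alternative therefore adds no support to these counts. With the mean of 3 bins the number of genes passing went from 2 to 4 in the zygote comparison, from 2 to 3 (with Gata4) between pronuclei with wild-type Kdm5b, from 0 to 1 (Sox7) between pronuclei with mutant Kdm5b and from 0 to 1 (Sox17) in paternal pronuclei with wild-type against mutant Kdm5b. At equal reads it went from 2 to 0 between pronuclei with wild-type Kdm5b. Dam-lamin B1 exceeded Dam in the share of cells at an OE of 1 in 7 of 24 gene and stage pairs, and in 11 at an OE of 2. Bins called in the zygote comparison numbered 14341, against 8913 at equal reads and 18204 with the mean of 3 bins; between pronuclei with wild-type Kdm5b 3746, against 1025 at equal reads and 5976 with the mean of 3 bins; without Kdm5b 503, against 10, 226 with depth as a covariate, 142 with the replicate block, 322 at a pseudocount of 1 and 1298 with the mean of 3 bins; with mutant Kdm5b 186, against between 2 and 848; in paternal pronuclei 4, against between 0 and 1073. Leaving out each 8-cell Dam cell gave 7 to 7 pairs above 0.

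Values that changed sign all belong to differences that did not pass. With the mean of 3 bins these were Pdgfra with Kdm4d (0.35), Gata6 (-0.18) and Gata4 (0.23) with aphidicolin, Gata4 (0.15) and Sox7 (0.33) between pronuclei without Kdm5b, Gata6 (-0.18), Gata4 (0.50) and Sox17 (-0.64) with mutant Kdm5b, Pdgfra in paternal (0.076) and Gata6 in maternal pronuclei (-0.040), and Sox7 (-0.028) and Foxa2 (0.18) in the interaction. At equal reads they were Gata4 in zygotes (0.26), Sox17 (0.35) and Pdgfra (-0.43) with aphidicolin, Gata6 (-0.38) and Sox17 (-0.68) between pronuclei with mutant Kdm5b, Pdgfra in paternal pronuclei (0.025), and Gata6 (0.061) and Foxa2 (0.35) in the interaction. With depth as a covariate they were Gata4 in zygotes (0.051), Pdgfra with Kdm4d (0.082) and without Kdm5b (0.028), and Sox17 with mutant Kdm5b (-0.40). Pseudocounts gave 0.0033 for Pdgfra without Kdm5b, 0.038 for Gata4 and -0.091 for Sox17 with mutant Kdm5b, and -0.074 for Sox7 in the interaction. The bin of the left end of Gata4, chosen after seeing the data, gave -0.074 with Kdm4d, 0.45, -0.062 and 0.62 between pronuclei without, with wild-type and with mutant Kdm5b, and -0.68 in the interaction. The cause was not tested.

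Same-numbered cells deviated together little (r between -0.0892 and 0.143). The r was above 0.1 in 2 of 9 pairs of Kdm5b zygotes and 1 of 10 pairs of Kdm4d zygotes. With a few reads per bin, such low values cannot exclude a shared litter or day, so pairing by number remains undecided. With the replicate block 2 genes passed in zygotes, 2 between pronuclei with wild-type Kdm5b and 0 in the other 7 comparisons, as without it, while Foxa2 with Kdm4d changed sign (-0.033), as did Pdgfra without Kdm5b (0.16). A few reads per bin and cell limit every single-cell value.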

Other observations

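The 13 oocytes labelled with both amounts of Dam-lamin B1 had Gata6 values between 0 and 3.64 (median 1.24) and Sox17 values between 0 and 1.97 (median 1.21). Sox7 ran from 0.730 to 2.13 in them (median 1.56), Pdgfra from 0 to 1.82 (median 1.16), Gata4 from 0 to 3.22 (median 0.736) and Foxa2 from 0 to 3.47 (median 0.498). The 1 cell of an 8-cell embryo labelled with both constructs had 2.74 at Gata6, 0.354 at Gata4, 1.39 at Sox17, 0.188 at Sox7, 0.940 at Pdgfra and 0.668 at Foxa2.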
